A study of Picromerus lewisi with 6 samples.

Results

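The cytosolic ribosome proteins of the venom gland of Picromerus lewisi, a predatory stink bug, were followed as 78 transcript clusters out of 22242 in the deposited table. A cluster was taken when its Swiss-Prot description named a protein of the cytosolic small (40S) or large (60S) ribosomal subunit and its first protein match came from Halyomorpha or Nezara, both plant-feeding stink bugs. Clusters whose description named a mitochondrial protein, a kinase or a methyltransferase were dropped. This rule used no measured values, but the set was chosen with earlier results of these data known. The 78 clusters carry the names of 70 different ribosomal proteins, 28 of the small and 42 of the large subunit, out of 79 in the standard nomenclature. The 9 names with no cluster chosen in this way were S13, S17, S23, S30, L23, L32, L37A, L39 and L41.

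RNA was sequenced from venom glands of adults (3 libraries) and of nymphs in the 5th instar (3 libraries), and the series compared these stages. Neither sex, age nor the number of animals behind a library is given in the labels, so the p-values below rest on how these libraries vary, and that variation may be technical. Values are FPKM, that is fragment counts divided by the mapped total of the library and by the length of the cluster, here less an offset that differs between libraries. Because there was no genome, each cluster has a name only from its best match and no chromosomal position, and fragments shared by near-identical copies could not be told apart.

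The ribosome is built from ribosomal RNA and a protein set that is present, in most cases, as a single copy of each protein in every particle. Its small subunit reads the messenger RNA, and its large subunit joins amino acids and releases the growing chain through an exit tunnel. The acidic proteins P0, P1 and P2 form a flexible stalk on the large subunit that recruits elongation factors. Secretory glands translate large amounts of exported protein, and a venom gland is such an organ.

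Of the whole series, the following facts bear on these values. The steps between low FPKM values gave back 13330827 to 18651190 fragments a library, counting clusters no shorter than 400 bases. The bug's own mitochondrial clusters took 18.6% of the summed FPKM in adult replicate 2 and 84.5% and 74.3% in the other adult libraries, against 52.7% to 71.2% in nymphs. Adult replicate 1 had 4927 clusters at an FPKM of 1 or more, adult replicate 2 had 18155, and the other 4 libraries had from 8679 to 14040. These 2 adult libraries therefore stood apart from each other and from the rest. The 56 clusters of venom serine proteases and other named venom proteins, the defining products of this gland, summed to at least 43678 FPKM in every library.

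The ribosomal protein clusters were abundant in every library. In clusters of at least 400 bases, 72 of the 78, they held 23790, 141754 and 224936 recovered fragments in the adult libraries, in replicate order, against 134402, 285181 and 173900 in the nymph libraries. Wherever 3 values of a stage stand together below, they are replicates 1, 2 and 3. Their summed FPKM made up 0.14%, 1.23% and 0.84% of the library total in adult glands, against 0.672%, 2.01% and 1.0202% in nymph glands. The stages overlapped in this share, with the lowest value in adult replicate 1 and the highest in nymph replicate 2. Mitochondrial clusters took different shares of each library, and outside them the ribosomal protein share was 0.906%, 1.51% and 3.27% in adults and 2.34%, 4.26% and 3.4% in nymphs. Adult replicates 1 and 2 lay below all nymph libraries on this measure, and adult replicate 3 lay within their range.

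A clear gap separated 72 clusters with high values from 6 with low ones. The 72 were above 0 in all 6 libraries and had mean rescaled FPKM from 34.8 to 645.1, and the 6 had means of at most 6.69. This division was made after the values were seen, and all 70 proteins are represented among the 72. Rescaled FPKM are deposited FPKM divided by a library factor, the median of the ratios to each cluster's geometric mean among clusters detected throughout, and all levels below are rescaled unless they are called deposited. The median of the 72 clusters was 191, 167 and 249 in adults, against 251, 342 and 312 in nymphs. Adult replicate 3 and nymph replicate 1 thus had nearly the same median, and the other 2 adult libraries lay below the other 2 nymph libraries. Of the 72 clusters, 41 had their lowest value in adult replicate 2, 23 in adult replicate 1 and 8 in adult replicate 3, and none had it in a nymph library. The same count was not made over all tested clusters, and the 72 share 1 scaling factor in each library.

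**Figure D1:**
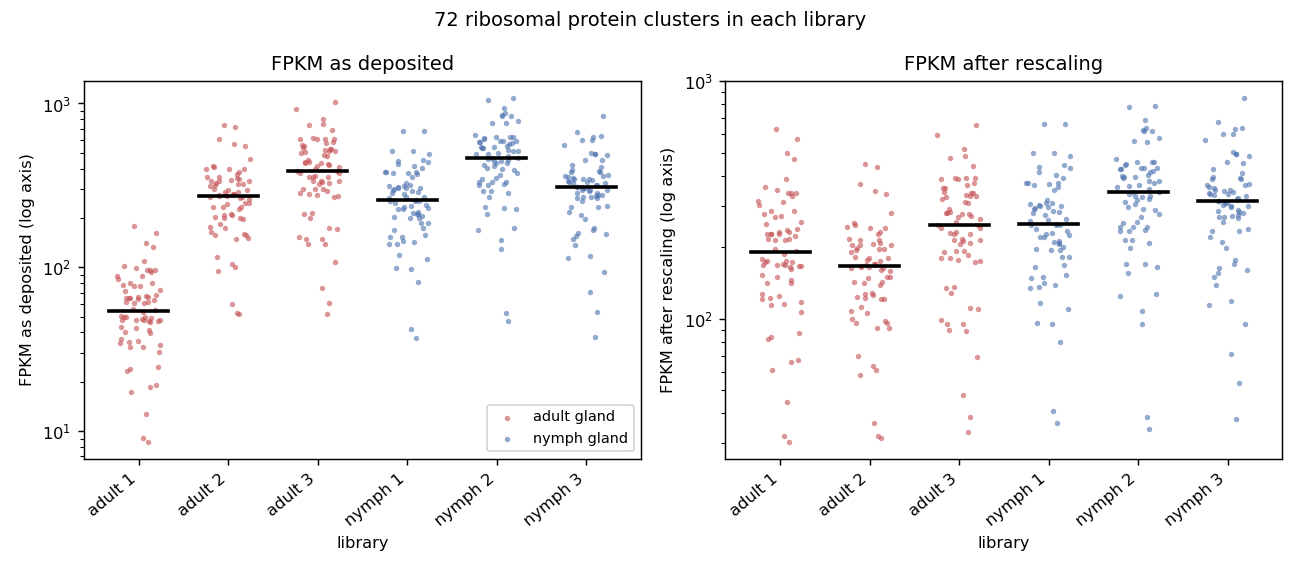
FPKM of 72 ribosomal protein clusters in each library, as deposited (left) and after rescaling (right), on log axes; each point is a cluster and each black line the median of a library. As deposited, adult replicate 1 lies lowest with a median of 54.1 FPKM; after rescaling, the medians run from 167 to 342 and adult replicate 3 stands level with nymph replicate 1.

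None of the ribosomal protein clusters passed the test for a difference between adult and nymph glands. Of the 78, 75 reached the filter (3 or more libraries with an FPKM of 1 or more), and 0 were called higher and 0 lower in adults (limma over all 11961 tested clusters, Benjamini-Hochberg adjusted p under 0.05). Over all tested clusters 0.234% were called. The smallest adjusted p of a ribosomal protein cluster was 0.4. At an unadjusted p under 0.05 there were 2 of 75, against 9.05% of all tested clusters. No other tool was run on these values.

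The differences nevertheless leaned one way. On the log2(rescaled FPKM + 1) scale, 72 of the 75 tested clusters had a lower mean in adults, and so did 61.6% of all tested clusters. The median difference, adult minus nymph, was -0.55 over the 75 and -0.29 over all tested clusters. The middle part of the 72 abundant clusters, between the quartiles, ran from -0.69 to -0.44, and 2 clusters lay under -1. The libraries of the stages did not overlap, with adults lower, in 32 of the 75, and in 10.1% of all tested clusters. They did not overlap with adults higher in 1 of the 75, and in 3.95% of all tested clusters. The clusters behind these shares differ in level, with a median of 257 for the 75 and 2.96 for all tested clusters. On deposited FPKM, only SA (Cluster-9520.4497) and L26 (Cluster-9520.4055) lay lower in adults without overlap. Most of the separation of ribosomal protein clusters thus appeared after rescaling. The share over all tested clusters was not counted on deposited FPKM, so this count has no background beside it. These counts describe clusters measured in the same 6 libraries, which share 1 scaling factor each, so they are not independent of one another.

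The precision of each difference was low. Standard errors of the 72 abundant clusters ran from 0.46 to 0.61 on the log2 scale, and their 95% intervals reached below -1 in all 72. The interval included 0 in 70 of the 72, and it reached above 1 in 1. The median cluster of at least 400 bases among the 72 held 319.5 fragments in adult replicate 1 and 1640.5 to 3437 in the other libraries. In bulk tissue, fewer cells of a type and less RNA per cell cannot be told apart.

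**Figure D2:**
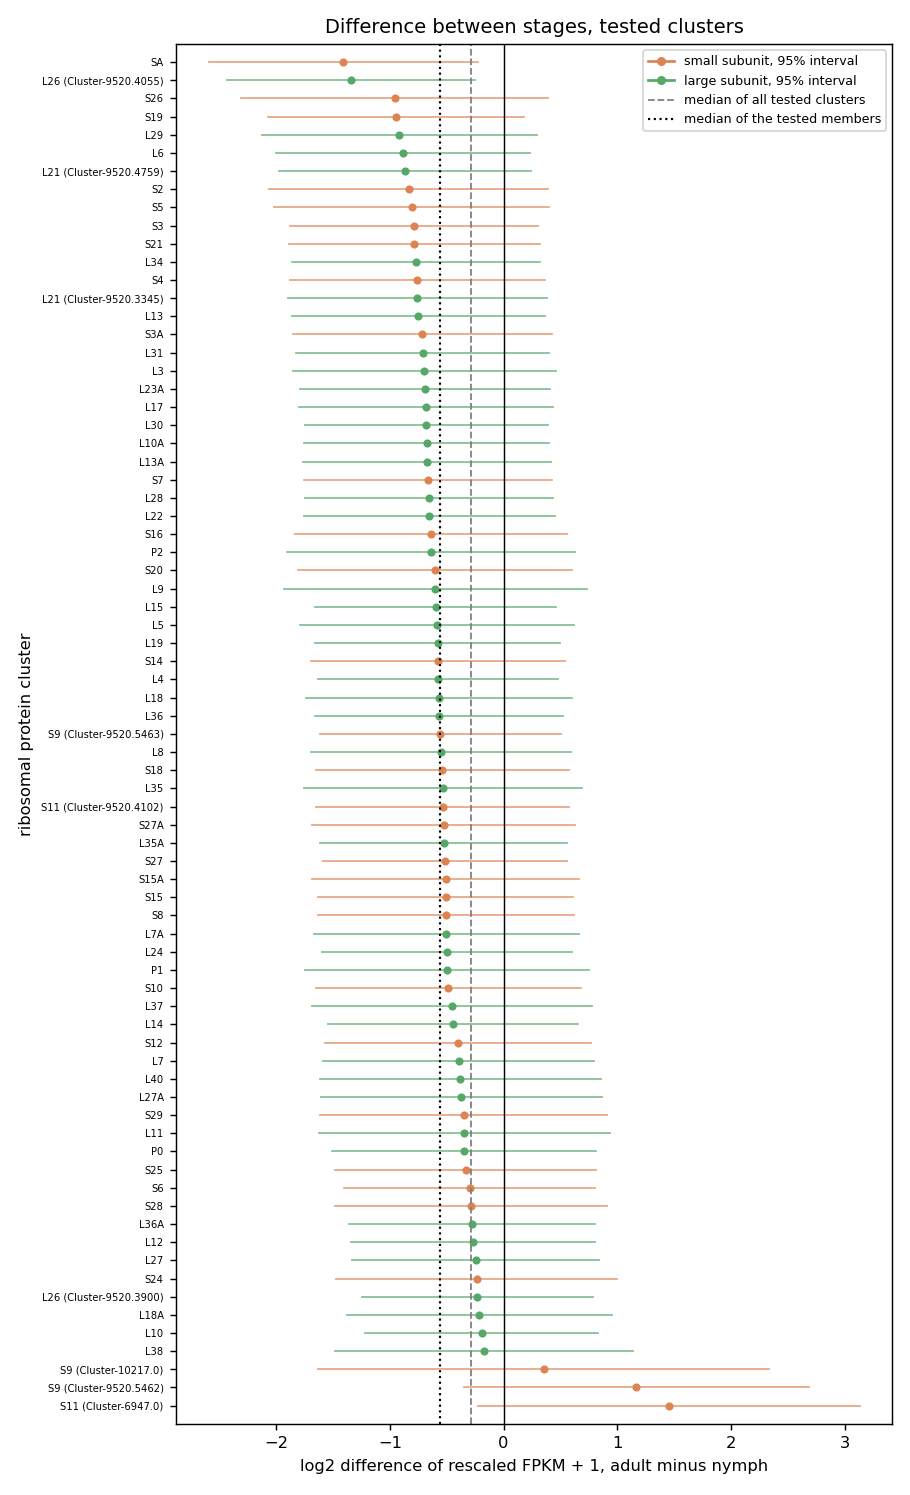
Log2 difference of rescaled FPKM + 1, adult minus nymph, for the 75 tested clusters (points) with 95% limma intervals (lines), small subunit in orange and large subunit in green. All but 3 low clusters of S9 and S11 lie left of 0, around a median of -0.55, against -0.29 for all tested clusters (dashed), and nearly all intervals include 0.

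The 31 tested small-subunit clusters had a median difference of -0.53, with 28 below 0, and the 44 tested large-subunit clusters had -0.57, with 44 below 0. The ratio of summed deposited FPKM, small over large subunit, was 0.837, 0.758 and 0.774 in adult libraries, against 0.829, 0.814 and 0.825 in nymph libraries. The adult range contained the nymph range. Proteins shared with bacteria, named u in the universal nomenclature, had a median difference of -0.55 over 34 tested clusters. Proteins found only in archaea and eukaryotes, or only in eukaryotes, named e, had -0.57 over 39. The difference between these groups was not tested.

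Among small-subunit proteins, S20 had the highest mean level. It binds in the head of the subunit. S20 (Cluster-9520.4112) was at 574, 337 and 657 in adults and at 662, 792 and 850 in nymphs (log2 difference -0.60 ± 0.54 SE, limma adjusted p = 0.77). The stages did not overlap, although adult replicate 3 and nymph replicate 1 were almost equal. S2 (Cluster-9520.4743), which lines the entry of the messenger RNA channel, was at 229, 371 and 474 in adults and at 435, 777 and 676 in nymphs. Adult replicate 3 lay above nymph replicate 1, so the stages overlapped. S8 (Cluster-9520.4735) was at 388, 346 and 484 in adults and at 501, 618 and 602 in nymphs, with no overlap.

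S25, a protein of the subunit head that is needed for translation from several viral internal entry sites, showed another order of libraries. S25 (Cluster-9520.4772) was at 629, 449 and 393 in adults and at 663, 559 and 602 in nymphs. It was the most abundant of all ribosomal protein clusters in adult replicates 1 and 2 and in nymph replicate 1, and S20 was the most abundant in the other 3 libraries. S15 (Cluster-9520.4766), in the head close to the decoding centre, was at 340, 241 and 391 in adults and at 445, 457 and 455 in nymphs, without overlap and with close agreement among the nymph libraries. S26 (Cluster-9520.3697), at the exit of the messenger RNA channel, was at 169, 169 and 517 in adults and at 348, 624 and 502 in nymphs. Its adult replicate 3 lay within the nymph range and its other adult libraries below it (log2 difference -0.96 ± 0.61 SE, limma adjusted p = 0.73).

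SA showed the most negative difference of all ribosomal protein clusters. It is a small-subunit protein of the solvent side, known also as the laminin receptor precursor. SA (Cluster-9520.4497) was at 118, 205 and 264 in adults and at 430, 579 and 487 in nymphs, so that every adult library lay below every nymph library. The log2 difference was -1.41 ± 0.53 SE (95% interval -2.59 to -0.23, unadjusted p = 0.024, limma adjusted p = 0.43). It was -1.07 without adult replicate 1 and -1.72 without adult replicate 3, and it ran from -1.92 to -0.83 over all settings tried. S19 (Cluster-9520.3933), whose human gene is mutated in an inherited anaemia, was at 216, 215 and 308 in adults and at 374, 557 and 493 in nymphs (log2 difference -0.95 ± 0.51 SE, limma adjusted p = 0.67).

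The most abundant large-subunit clusters were those of the stalk and of L27A, L28 and L35. P0 (Cluster-9520.4400), the base of the stalk, was at 497, 438 and 391 in adults and at 404, 686 and 631 in nymphs. P1 (Cluster-9520.4018) was at 339, 227 and 366 in adults and at 252, 639 and 493 in nymphs, and P2 (Cluster-9520.4562) at 470, 197 and 440 in adults and at 393, 617 and 635 in nymphs. All 3 stalk proteins overlapped between the stages, with nymph replicate 1 inside the adult range for each. Their log2 differences were -0.34, -0.50 and -0.64 (limma adjusted p = 0.86, 0.81 and 0.77).

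L27A (Cluster-9520.4067) was at 314, 244 and 596 in adults and at 372, 472 and 565 in nymphs. L28 (Cluster-9520.3782), a protein absent from bacteria, was at 256, 280 and 241 in adults and at 484, 379 and 371 in nymphs. L28 did not overlap between the stages, while the adult range of L27A contained the nymph range. L35 (Cluster-9520.5306), at the exit tunnel, was at 328, 143 and 338 in adults and at 298, 415 and 393 in nymphs. L29 (Cluster-9520.5631), a small basic protein, was at 83.9, 168 and 229 in adults and at 300, 234 and 312 in nymphs. Adult replicate 3 and nymph replicate 2 were close for L29, and the stages did not overlap. L6 (Cluster-9520.3919) was at 114, 165 and 180 in adults and at 222, 363 and 268 in nymphs, also without overlap (log2 difference -0.88 ± 0.50 SE, limma adjusted p = 0.70).

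S27A and L40 are made as fusions with ubiquitin, which is cut off and joins the cell's ubiquitin pool. S27A (Cluster-9520.4814) was at 252, 182 and 355 in adults and at 289, 394 and 428 in nymphs. L40 (Cluster-9520.4389) was at 228, 124 and 326 in adults and at 197, 311 and 332 in nymphs. Both overlapped between stages, with log2 differences of -0.53 and -0.38 (limma adjusted p = 0.79 and 0.85).

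The differences nearest to 0 among the abundant clusters were those of L38 and L10. L38 (Cluster-9520.7374), of the large subunit, was at 237, 91.2 and 334 in adults and at 248, 236 and 176 in nymphs. Its arithmetic means were almost equal, 220.5 ± 122.0 in adults and 220.4 ± 38.5 in nymphs (SD, n = 3 each), with a log2 difference of -0.17 ± 0.59 SE (limma adjusted p = 0.94). L10 (Cluster-9520.5671), which joins the large subunit late in its maturation, was at 121, 107 and 98.8 in adults and at 135, 125 and 115 in nymphs. Its stages overlapped within a narrow range.

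**Figure D3:**
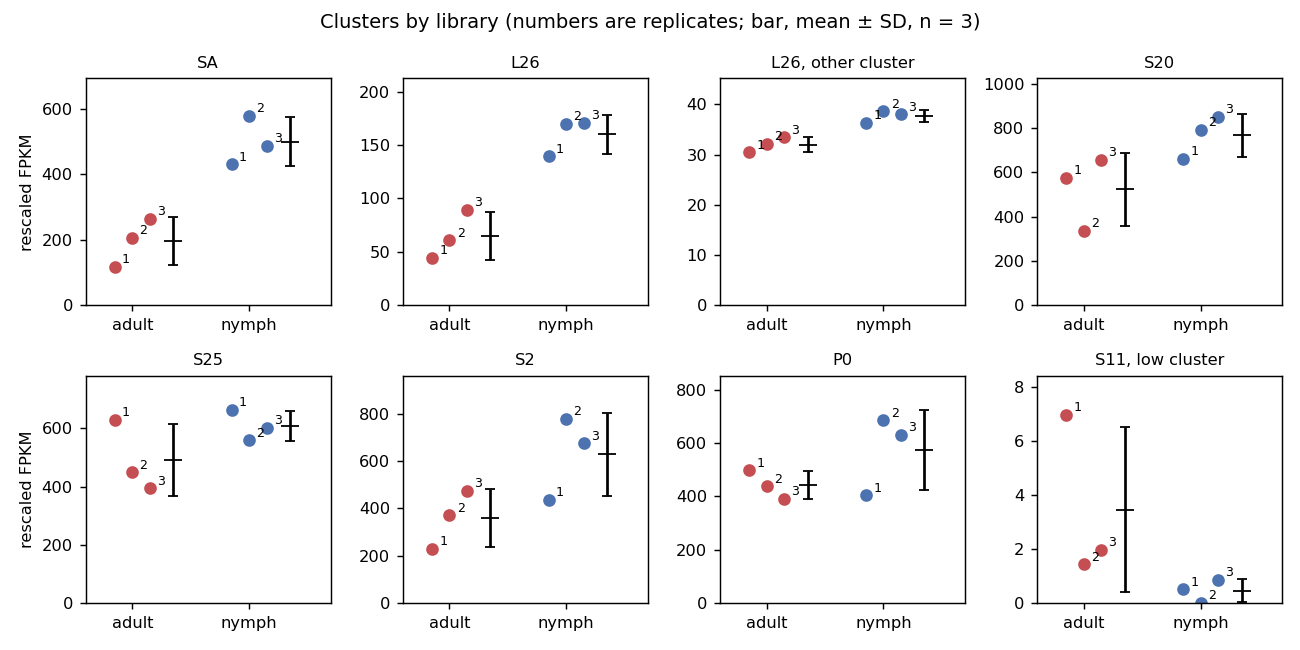
Rescaled FPKM of 8 clusters by library, adult (red, left) and nymph (blue, right), with replicate numbers beside the points and mean ± SD (n = 3) as bars. Stages do not overlap for SA, both L26 clusters, S20 and the low S11 cluster, and they overlap for S25, S2 and P0.

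More than 1 cluster was found for 7 proteins. L26, which lies beside the exit tunnel, had 2 abundant ones. Cluster-9520.4055, of 798 bases, was at 44.6, 60.8 and 89.2 in adults and at 139, 170 and 171 in nymphs (log2 difference -1.34 ± 0.49 SE, unadjusted p = 0.021, limma adjusted p = 0.40). Cluster-9520.3900, of 761 bases and named L26-like, was at 30.4, 32.1 and 33.4 in adults and at 36.4, 38.7 and 38.01 in nymphs (log2 difference -0.23 ± 0.46 SE). Neither cluster overlapped between stages. The second cluster made up 40.6%, 34.6% and 27.3% of the deposited FPKM of the pair in adults and 20.7%, 18.5% and 18.2% in nymphs. Scaling cancels in this share, and every adult value lay above every nymph value. The lesser clusters of S9 made up 4.24%, 8.49% and 4.37% in adults and 3.54%, 2.05% and 0.472% in nymphs. That of S11 made up 3.86%, 0.881% and 0.719% in adults, against 0.205%, 0% and 0.301% in nymphs. Neither protein overlapped between the stages in this share. The shares were looked at after the values were seen and were not tested. Those of S9 and S11 rest on few fragments in some libraries. The lesser cluster of S11 held from 0 to 42 a library. Of the lesser S9 clusters, Cluster-9520.5462 held from 10 to 139 and Cluster-10217.0 from 0 to 66.

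The paired clusters of L21 behaved alike. Cluster-9520.4759 was at 150, 106 and 194 in adults and at 229, 304 and 270 in nymphs, and Cluster-9520.3345 at 32.03, 36.4 and 47.8 in adults and at 40.97, 94.9 and 71.3 in nymphs. The second made up from 15.2% to 25.5% of the pair over the 6 libraries, with overlapping stages. Of the other 5 proteins with several clusters, each had a single leading cluster. The lesser clusters of P0, L27A and L30 were listed at 0 in 4 or 5 libraries. That of P0 (Cluster-3778.0) was at 11.98 in nymph replicate 2 and 1.95 in adult replicate 2. Those of L27A (Cluster-707.0) and L30 (Cluster-9520.6809) were above 0 in adult replicate 2 alone, at 1.88 and 4.5. These 3 clusters were not tested. The leading cluster of L30 (Cluster-9520.4688) was at 67.0, 95.9 and 69.2 in adults and at 153, 127 and 94.98 in nymphs.

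Among the 75 tested clusters, the 3 with a higher mean in adults on the log2 scale belonged to S9 and S11. S9 lies near the entry of the messenger RNA channel. Its leading cluster (Cluster-9520.5463) was at 215, 170 and 193 in adults and at 285, 291 and 271 in nymphs, without overlap. Cluster-9520.5462 was at 9.52, 11.3 and 6.09 in adults and at 9.51, 2.53 and 1.18 in nymphs (log2 difference 1.17 ± 0.68 SE, limma adjusted p = 0.72). Cluster-10217.0, also of S9, was at 0, 4.49 and 2.71 in adults and at 0.939, 3.57 and 0.101 in nymphs. The leading cluster of S11 (Cluster-9520.4102) was at 173, 160 and 272 in adults and at 248, 330 and 281 in nymphs. The low S11 cluster (Cluster-6947.0) was at 6.95, 1.42 and 1.97 in adults and at 0.509, 0 and 0.848 in nymphs. It is the single cluster whose adult values all lay above the nymph values (log2 difference 1.45 ± 0.76 SE, limma adjusted p = 0.64). This cluster held 20, 26 and 42 recovered fragments in adults and 6, 0 and 11 in nymphs. At such levels the log2 difference depends on the added 1, and with 0.1 added it was 2.86 (limma adjusted p = 0.74).

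The levels of the clusters were correlated between all libraries. Across the 72 abundant clusters, Pearson's r of log2 levels ran from 0.76 to 0.95 between libraries of the same stage (6 pairs) and from 0.74 to 0.94 between libraries of different stages (9 pairs). Spearman's rho, which compares the order alone, ran from 0.61, for adult replicate 1 with nymph replicate 2, to 0.90, for adult replicate 3 with nymph replicate 3. These correlations are across clusters, which are not independent replicates and share each library's depth. The closest pairs were nymph replicates 2 and 3 (0.95) and adult replicate 3 with nymph replicate 3 (0.94). Adult replicate 1, the library with the fewest ribosomal protein fragments, was the least like the others, with r from 0.74 to 0.81 and rho from 0.61 to 0.74. Within a library, the most abundant of the 72 exceeded the least abundant by 14.3 to 23.1 times in deposited FPKM.

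Single proteins departed from the common shift by different amounts. For each cluster, the deviation from the library's median over the 72 was taken, and its SD over the 6 libraries was used as the measure. This SD had a median of 0.286 on the log2 scale. S8 varied least, at 0.0707, followed by S7 at 0.084. The most variable were S28 (Cluster-9520.3257) and S29 (Cluster-9520.2949), each at 0.66, then L38 at 0.566 and SA at 0.561. S29 was at 340, 122 and 111 in adults and at 195, 209 and 234 in nymphs. Its highest value was in adult replicate 1 and its lowest in the other adult libraries. S28 was at 65.8, 31.4 and 38.8 in adults and at 80.0, 34.3 and 53.6 in nymphs.

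Cluster length moved with these departures. The 12 abundant clusters under 500 bases, S29 and L38 among them, had a median SD of 0.409, and the 60 longer ones had 0.268. After each cluster was centred on its own mean, the deviation correlated with log2 length at r = -0.31 in adult replicate 1, 0.39 in adult replicate 2 and -0.12 in adult replicate 3, and at -0.20, 0.37 and 0.08 in nymph replicates 1, 2 and 3 (72 clusters each, as a description). Both signs thus occurred within each stage. FPKM here divide by length less an offset that ran from 218 to 293 bases between libraries, which weighs most on short clusters. Its part in these departures was not tested. Over clusters of at least 500 bases, recovered fragments per full length gave a median of -0.57, with 60 of 60 abundant clusters below 0.

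**Figure D4:**
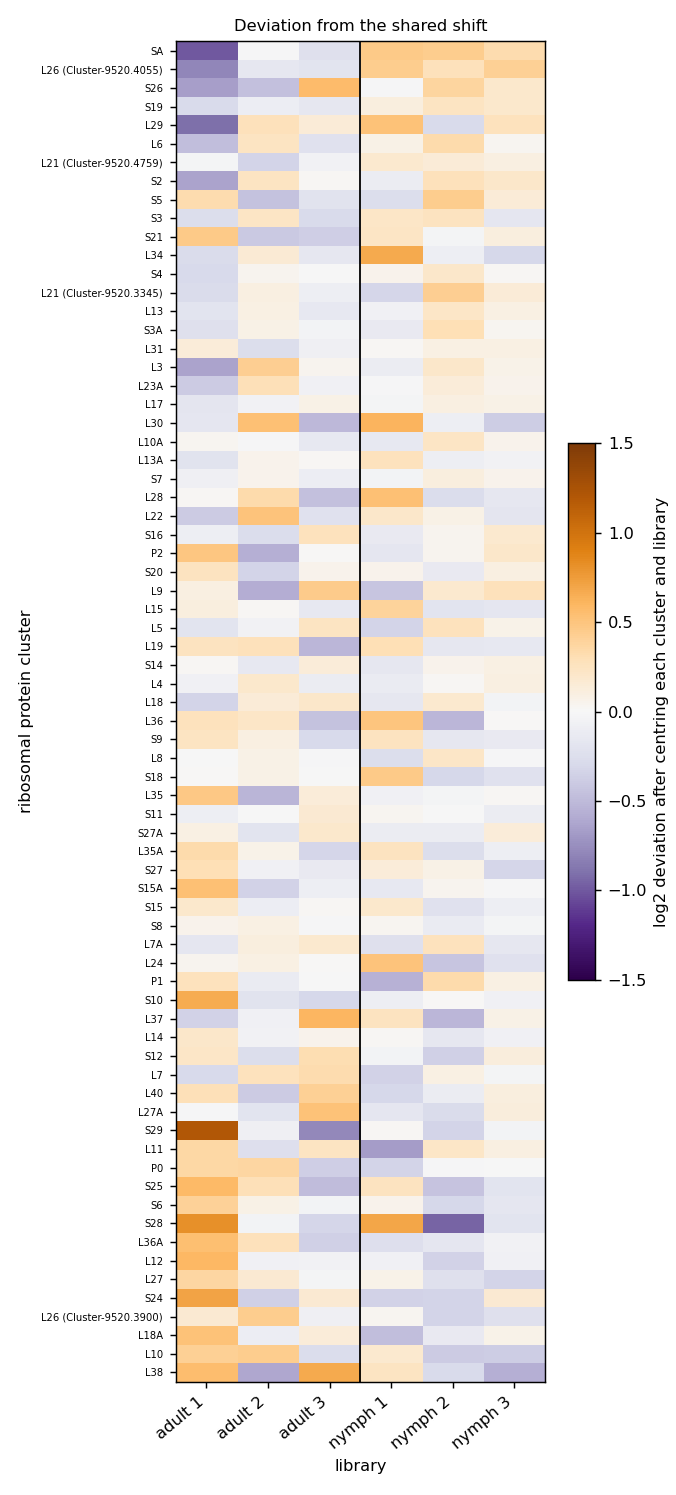
Deviation of 72 clusters (rows, from the most negative adult minus nymph difference at the top) in each library (columns), in log2 units after the library median over the 72 and each cluster's own mean are taken away; orange is above and purple below the shared shift. SA and L26 Cluster-9520.4055 are purple in adult replicate 1 and orange in the nymph libraries, and the strongest single deviation is that of S29 in adult replicate 1, at 1.21.

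The size of the common difference depended on how libraries were made comparable. The median over the 72 abundant clusters was -0.57, -0.87 on deposited values, -1.08 with libraries set to an equal total and -0.41 after quantile normalization. Over all tested clusters the same settings gave medians of -0.29, -0.33, -0.39 and -0.02. With a pseudocount of 0.1, the 72 clusters had -0.57 and all tested clusters -0.59, so the distance between them vanished at that setting. Scaled to the ribosomal proteins themselves, which sets their common shift near 0, 33 of the 72 lay below 0 and no cluster among them passed (limma adjusted p from 0.82 for L26 Cluster-9520.4055). Over all tested clusters 0.192% were called at that scaling. SA and L26 Cluster-9520.4055 kept differences of -0.83 and -0.76 there.

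Other genes of ribosome production and translation were followed by lists of description patterns under the same match rule, and none of their clusters passed the test. Ribosome assembly factors and nucleolar proteins, which process ribosomal RNA and build the subunits, had 59 tested clusters of 63, 49 of them below 0, with a median of -0.73. Among them, the assembly factor NSA2 (Cluster-9520.3219) was at 8.18, 40.1 and 38.2 deposited FPKM in adults and at 59.8, 67.2 and 52.2 in nymphs. RNA polymerase I, which transcribes ribosomal RNA, had 6 of 7 tested clusters below 0 and a median of -0.76. Mitochondrial ribosomal proteins had 57 of 73 below 0 and a median of -0.53. In these lists, clusters at 0 were most frequent in adult replicate 1. Ribosome assembly had 26, 1 and 9 of 63 at 0 in adults and 7, 1 and 1 in nymphs. RNA polymerase I had 6, 0 and 3 of 9 in adults and 2, 1 and 1 in nymphs. Mitochondrial ribosomal proteins had 23, 0 and 9 of 73 in adults and 2, 2 and 0 in nymphs. The part of these zeros in the medians was not tested.

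Translation factors had 34 of 41 clusters below 0 and a median of -0.26, near that of all tested clusters. Their summed rescaled FPKM was 2462, 3043 and 3258 in adults and 3831, 5107 and 4109 in nymphs, lower in every adult library. Elongation factor 1-alpha (Cluster-9520.4354), which brings aminoacyl-tRNA to the ribosome, was the most abundant of them and held much of this sum. It was at 323, 2157 and 2163 deposited FPKM in adults and at 2046, 3306 and 1859 in nymphs. Its log2 difference was -0.71 ± 0.55 SE (limma adjusted p = 0.75). Elongation factor 1-beta (Cluster-9520.4079) had -0.70 ± 0.50 SE (limma adjusted p = 0.74). Ribosome-associated proteins, such as the nascent polypeptide-associated complex and the signal recognition particle, had 5 of 12 below 0 and a median of 0.16. Their most abundant member, the translationally-controlled tumor protein homolog (Cluster-9520.4490), was at 90.5, 276 and 601 deposited FPKM in adults and at 358, 826 and 498 in nymphs. Its log2 difference was -0.79 ± 0.56 SE (limma adjusted p = 0.74). The next, a homolog of transcription factor BTF3 (Cluster-9520.3646), had -0.56 ± 0.57 SE (limma adjusted p = 0.80). The most abundant members thus lay below 0, although 7 of the 12 lay above it. These lists were not tested against one another.

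The gland's own venom markers leaned the other way from the ribosomal proteins. Of 52 tested venom clusters, 37 lay above 0, with a median difference of 0.65, and none passed the test. The most abundant of them went opposite ways. Venom serine protease (Cluster-9520.4416) had a log2 difference of 1.96 ± 0.84 SE, and venom serine protease 34 (Cluster-9520.4340) had -1.31 ± 0.72 SE. The summed rescaled FPKM of all venom clusters was 154083, 204648 and 66063 in adults and 59087, 104101 and 55698 in nymphs, so the stages overlapped through adult replicate 3. Markers of other tissues also varied between libraries. In summed rescaled FPKM, the 28 muscle clusters stood at 270.2, 68.0 and 137 in adults and at 225, 225 and 451 in nymphs. The 22 cuticle and chitin clusters summed to 13.1, 10.2 and 5.13 in adults and to 321, 45.9 and 68.4 in nymphs, and 20, 14 and 19 of them were listed at 0 in the adult libraries. The 38 clusters listed for dividing cells summed to 83.5, 64.8 and 37.2 in adults and to 96.8, 159 and 175 in nymphs, lower in every adult library. Single clusters weighed heavily in these sums. Cyclin-B3 (Cluster-3108.0) gave 15.7 of 23.7 deposited FPKM in adult replicate 1. Cyclin-dependent kinase 14 (Cluster-9520.3957), with a log2 difference of 0.40, gave 31.7 of 106 in adult replicate 2 and 17.4 of 58.0 in adult replicate 3. Fat body markers summed to at most 57.2, and those of neurons to at most 109, in every library. Of the 9 fat body clusters, 4 were tested, 3 of them below 0. Hexamerin (Cluster-9520.5895) was at 2.04, 0.34 and 2.09 deposited FPKM in adults and at 17.96, 22.12 and 13.35 in nymphs, without overlap. Its log2 difference was -2.55 ± 0.72 SE (limma adjusted p = 0.27). Vitellogenin receptor (Cluster-1537.0), listed at 0 in the other libraries, gave 42.58 of 57.88 deposited FPKM in adult replicate 3. The 18 clusters listed as haemocyte markers summed to 732, 1324 and 333 in adults and to 1793, 663 and 261 in nymphs. The most abundant, Cluster-9520.4471 and Cluster-9520.4452, are both named phenoloxidase-activating enzyme and held much of the sum. They were at 1272 and 312 deposited FPKM in adult replicate 2 and at 522 and 1078 in nymph replicate 1. The whole list there summed to 2175 and 1833 deposited FPKM. The log2 differences of these clusters went opposite ways, 0.70 ± 0.76 and -1.43 ± 0.76 SE. The part of the venom products and of these cell types in the ribosomal protein values was not tested.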

How the data were processed

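The authors deposited FPKM per transcript cluster and library, with cluster lengths and database matches, for an assembly made without a reference genome. The submitters' processing notes list DESeq2 1.20.0, featureCounts 1.5.0-p3, HISAT2 2.0.5, fastp and CASAVA 1.8 without saying what each did; which of them, if any, made the FPKM is not stated. Per the labels' protocols, TRIzol was the extraction reagent and NEBNext Ultra the library kit. Whole fragments were recovered from FPKM below 3 in clusters of 500 to 1100 bases, by fitting a total and a length offset per library. In clusters of 1101 to 1500 bases, 99.4% to 100% of values were then whole (tolerance 0.15 of a fragment; chance gives 30%). No interval is given from these counts.

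Adult and nymph libraries were compared in R 4.3.3 with limma 3.58.1 (trend and robust), fitting stage alone to log2(rescaled FPKM + 1) in clusters that reached an FPKM of 1 in 3 or more libraries, with Benjamini-Hochberg adjustment over all 11961. Rescaling factors came from 4653 clusters above 0 in all libraries and ran from 0.283 in adult replicate 1 to 1.64 in adult replicate 2. A count test was not run, since the length offset differs between libraries. The procedure was tested on simulated data. The simulated stage differences were larger than the median of the ribosomal proteins, so they do not show whether such a difference would be called. The members and lists were chosen with earlier results of these data known. Named clusters are the 6 most abundant of each subunit, all stalk and ubiquitin-fusion clusters, the 5 largest differences each way, the 5 smallest p, those listed at 0 in at least 3 libraries and, of proteins with most clusters (7 with ties), the 2 most abundant; any others were chosen after their values were seen. Alternatives were other pseudocounts, filters, scalings, limma options, library weights, a replicate block and each library left out.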

Additional observations from a re-analysis of the deposited data

How the results depend on the processing

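No ribosomal protein cluster passed in any of 18 other settings, whose smallest adjusted p was 0.2 (limma with library quality weights), and in 15 of them every abundant cluster tested lay below 0. The exceptions were quantile normalization (68 of 72 below 0), leaving out adult replicate 2 (69 of 72) and scaling to the members (33 of 72). Over the 75 tested clusters the median difference of -0.55 became -0.86 on deposited FPKM, -1.07 at an equal total and 0.0236 when scaled to the members, where 33 lay below 0. It ran from -0.77 to -0.43 with single libraries left out. The summed share differed by -0.50 percentage points, adult minus nymph, and by -1.44 outside mitochondrial clusters; leaving out each library, chosen after seeing the data, gave -0.78 to -0.11, with -0.20 without adult replicate 1 and -0.11 without nymph replicate 2.

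The count of calls over all clusters, 28, was 12 with a pseudocount of 0.1, 65 with a mean filter, 104 with no filter, 72 on deposited FPKM, 43 on recovered fragments, 65 with library quality weights, 4, 1 and 54 without adult replicate 1, 2 or 3, and 6, 9 and 9 without nymph replicate 1, 2 or 3. The labels do not say whether replicate numbers pair the libraries. Correlations of deviations from the stage means were 0.165, -0.0427 and 0.213 between same-numbered libraries. Between libraries of other numbers they ran from -0.275 to 0.151, and so few values cannot decide whether libraries were paired. A replicate block gave 29 calls over all clusters and changed no ribosomal protein call.

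Of 527 values of the 30 tested named clusters, 510 kept direction and call. Scaled to the members, the differences turned positive for L10 (0.38), L26 Cluster-9520.3900 (0.33), L27A (0.21), L35 (0.0443), L38 (0.40), L40 (0.20), P0 (0.24), P1 (0.0838), S11 Cluster-9520.4102 (0.0444), S15 (0.0697), S25 (0.25), S27A (0.0510), S8 (0.0749) and S9 Cluster-9520.5463 (0.0236), as that scaling takes the shared shift away. L38 was also positive after quantile normalization (0.0692) and without adult replicate 2 (0.34), where its range over single libraries left out began at -0.62. S9 Cluster-10217.0 ran from -0.13, without nymph replicate 3, to 1.21 with single libraries left out. The causes of these changes were not tested.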

Other observations

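Some ribosomal protein clusters were best matched by other insects. Of 26 clusters with a cytosolic ribosomal protein description but another first match, 18 matched moths and butterflies, among them Spodoptera, Helicoverpa and Trichoplusia. All 18 were listed at 0 in the 3 adult libraries. In nymphs, 15, 12 and 10 of them were above 0 in replicates 1, 2 and 3, with summed deposited FPKM of 98.7, 196 and 42.6. They named 15 different proteins, and 6 clusters were above 0 in all nymph libraries. The highest was L17 (Cluster-4168.0) at 80.9 FPKM in nymph replicate 2 alone. Of the 18, 5 reached the filter and 0 were called (smallest limma adjusted p = 0.19). A further 2 clusters matched a mouse and a rotifer. These are best database matches, and the source of the transcripts was not tested.

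The other 6 clusters matched other true bugs, a wasp or a booklouse, and carried the names S13, S17, S23, L23, L32 and L37A, all absent from the 70 proteins described. All 6 had log2 differences below 0, adult minus nymph. L23 (Cluster-9520.4092) was at 380, 272 and 469 rescaled FPKM in adults and at 399, 548 and 454 in nymphs, and S13 (Cluster-9520.4048) at 210, 188 and 175 in adults and at 262, 304 and 279 in nymphs. L37A (Cluster-9520.3503), best matched by the bed bug Cimex, had a different pattern, at 23.5, 59.5 and 11.4 in adults and at 115, 11.2 and 14.9 in nymphs. Its highest values were in nymph replicate 1 and adult replicate 2. These clusters were chosen after their values were seen.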
